A study of Mus musculus with 5 samples.

Results

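The genes described here are 10 regulators of the G1 phase of the cell cycle, chosen by name from the 30046 features of a count table. They comprise the D cyclins Ccnd1, Ccnd2 and Ccnd3, the E cyclins Ccne1 and Ccne2, the Cip/Kip inhibitors Cdkn1a and Cdkn1b, the INK4 inhibitors Cdkn2a and Cdkn2c, and the pocket protein Rb1. The cells were CAR cells (CXCL12-abundant reticular cells, the stromal cells of bone marrow that secrete CXCL12), sorted as Cxcl12-GFP high tdTomato+ cells from mouse femurs at P21. All mice carried 1 GFP allele at Cxcl12 and the R26R-tdTomato reporter, Cxcl12(GFP/+) and R26R(tdTomato/+), and all received tamoxifen at E12.5. The groups were 3 libraries of Dlx5CE-E12.5 cells, with the driver Dlx5(CreER/+), and 2 libraries of Fgfr3CE-E12.5 cells, with the driver Fgfr3-iCreER. tdTomato therefore marks descendants of cells in which Dlx5-creER was active in the fetal perichondrium, or Fgfr3-creER, a transgene, in fetal cartilage. Each library came from pooled littermates, and no driver-negative or unsorted control entered the comparison. The question was how stromal cells of these 2 fetal origins differ at the same age.

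According to the methods, the Dlx5CE-E12.5 libraries had longer paired-end reads from a NovaSeq and the Fgfr3CE-E12.5 libraries shorter single-end reads from a HiSeq, whereas the labels name the HiSeq for every library. By the methods, sequencer and read length therefore coincide with the lineage and cannot be told apart from it. Total counts were 22035650 to 32563758 in Dlx5CE-E12.5 cells and 56355203 to 58166285 in Fgfr3CE-E12.5 cells, numbered replicates 2 and 3 by the labels. A count of 3, taken as the smallest detectable amount, was 0.0516 to 0.136 CPM (counts scaled to the library total, after TMM normalization where a gene's level is given), which covers counting error only. Of 11 CAR cell markers, all were detected, and their summed CPM was 33916 to 36022 in Dlx5CE-E12.5 cells, 13816 in Fgfr3CE-E12.5 replicate 2 and 8970 in replicate 3. Cxcl12 made up most of each sum. Of the 11, 9 were higher in all Dlx5CE-E12.5 libraries than in both Fgfr3CE-E12.5 libraries. Foxc1 went the other way, with means of 47.7 CPM in Dlx5CE-E12.5 and 336.9 in Fgfr3CE-E12.5 cells, and Pdgfrb overlapped. In bulk libraries, fewer cells expressing a gene and less RNA of that gene per cell cannot be told apart.

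In G1, mitogens raise the D cyclins, which bind the kinases CDK4 and CDK6 and phosphorylate the retinoblastoma protein encoded by Rb1. Phosphorylation releases E2F transcription factors, which induce the E cyclins and other genes of S phase, and cyclin E then acts with CDK2. INK4 inhibitors bind CDK4 and CDK6, Cip/Kip inhibitors act mainly on CDK2 complexes, and both families hold cells in G1 or quiescence.

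Promoter windows of 250 bases before and 50 bases after a RefSeq start (GRCm38.p6) were at hand for 6 of the 10 genes, Ccnd3, Ccne1, Cdkn1a, Cdkn1b, Cdkn2a and Cdkn2c. Shown here are the bases outside annotated exons for Ccne1 and Cdkn1b, as examples of genes called in opposite directions. Both windows of Cdkn2c, the other gene called that had one, lay wholly in annotated exons and are not shown. Capitals mark the GC box GGGCGG on either strand.
Ccne1, minus strand, chr7:38107535-38107740: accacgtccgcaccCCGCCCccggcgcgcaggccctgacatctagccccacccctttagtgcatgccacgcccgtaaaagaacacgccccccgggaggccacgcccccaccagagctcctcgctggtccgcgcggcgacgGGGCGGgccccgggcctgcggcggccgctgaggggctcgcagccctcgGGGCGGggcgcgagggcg
Cdkn1b, plus strand, chr6:134920151-134920400: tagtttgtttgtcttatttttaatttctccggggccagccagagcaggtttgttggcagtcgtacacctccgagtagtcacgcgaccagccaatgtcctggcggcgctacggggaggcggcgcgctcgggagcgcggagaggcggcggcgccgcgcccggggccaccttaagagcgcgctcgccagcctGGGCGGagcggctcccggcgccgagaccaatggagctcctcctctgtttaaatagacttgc
The Ccne1 window held 4 GC boxes, the last of which runs past the bases shown, and the Cdkn1b window held 1, beginning at -61 from its start. Of the Cdkn2c windows, 1 held 4 GC boxes and the other none. Of 32851 RefSeq windows of the same length, 35.7% held this word. The E2F words TTTCCCGC, TTTCGCGC, TTTGCCGC and TTTGGCGC, searched on both strands, were found in 2.26% of all windows and, among the 6 genes, in 1 window of Cdkn2a alone. A match or its absence describes these letters in this window and not the binding of a factor.

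The E cyclins, Cdkn2c and Rb1 were higher in Fgfr3CE-E12.5 cells, and Cdkn1b was higher in Dlx5CE-E12.5 cells. Cdkn2c differed most, with a mean 6.79 times as high in Fgfr3CE-E12.5 cells, followed by Rb1 at 4.72 times. The D cyclins and Cdkn1a did not pass both thresholds. The test was edgeR's quasi-likelihood F test on genes whose CPM reached 10 in 2 or more libraries, and a gene was called when its Benjamini-Hochberg adjusted p was under 0.05 and its log2 fold change, given as Fgfr3 over Dlx5, was beyond 1 in either direction. Of the 10 genes, 8 entered this test, Ccnd1 entered only a fit with a lower filter and Cdkn2a entered neither. Cdkn2c passed the filter through the Fgfr3CE-E12.5 libraries alone and Cdkn1b through the Dlx5CE-E12.5 libraries alone. Of the 8, 4 were called higher in Fgfr3CE-E12.5 cells, where 16.4% of the 10088 genes tested were, and 1 was called higher in Dlx5CE-E12.5 cells, where 13.1% were. Ccnd2, Ccnd3, Ccne1, Ccne2, Cdkn1a and Rb1 reached a CPM of 10 in 2 or more libraries of each lineage. Of these, Ccne1, Ccne2 and Rb1 were called, all higher in Fgfr3CE-E12.5 cells. Of all 8341 genes that reached it in each lineage, 11.3% were called higher in Fgfr3CE-E12.5 and 10.4% in Dlx5CE-E12.5 cells. The adjusted p alone was under 0.05 for 6 of the 8 and for 48.4% of the genes tested. The libraries of the 2 lineages did not overlap for 7 of the 8 and for 68.9% of the genes tested, so that separation of the libraries was common across the genome.

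**Figure D1:**
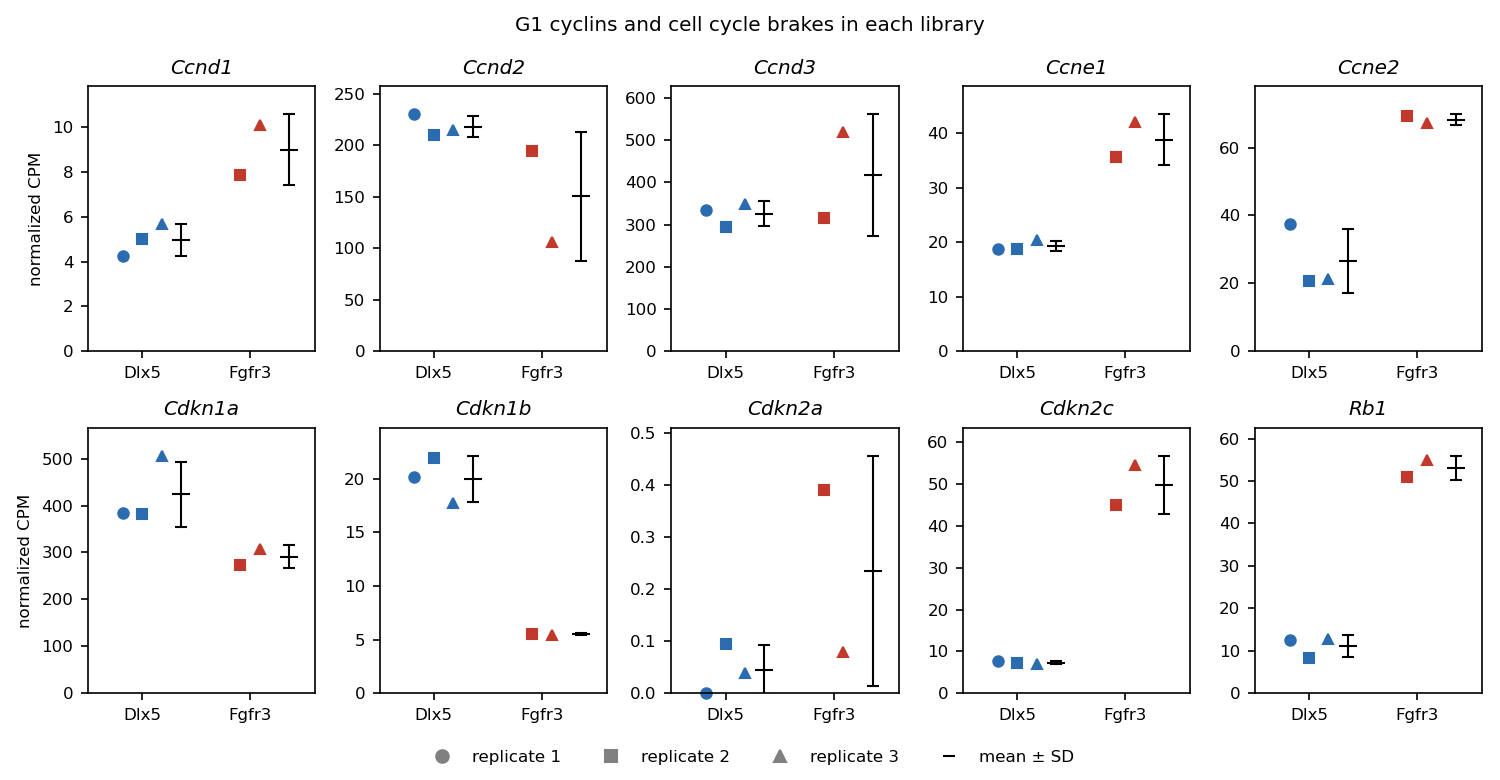
Each panel plots 1 gene, with its TMM-normalized CPM on a linear axis from 0, one point per library (shape gives the replicate number) and the mean ± SD of each lineage beside the points. The lineages separated without overlap for all genes except Ccnd3, where Fgfr3CE-E12.5 replicate 2 at 315.8 CPM lay within the Dlx5CE-E12.5 range, and Cdkn2a, which was near 0.

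Ccnd3, a D cyclin prominent in blood lineages (ENSMUSG00000034165, chromosome 17, 47505051 to 47599691 on GRCm38), was at 334.8, 294.7 and 350.03 CPM in Dlx5CE-E12.5 replicates 1 to 3 and at 315.8 and 519.02 in Fgfr3CE-E12.5 replicates 2 and 3. One Fgfr3CE-E12.5 library lay inside the Dlx5CE-E12.5 range and the other above it. Its log2 fold change was 0.35 (SE 0.22, 95% interval -0.18 to 0.89), with an adjusted p of 0.232 (edgeR's quasi-likelihood test), and it was -0.05 without Fgfr3CE-E12.5 replicate 3. Ccnd2, a D cyclin induced by growth factors (ENSMUSG00000000184, chromosome 6, 127125162 to 127152193), was at 229.9, 209.9 and 214.7 CPM in Dlx5CE-E12.5 cells and at 194.7 and 106.1 in Fgfr3CE-E12.5 cells. Every Fgfr3CE-E12.5 library was below every Dlx5CE-E12.5 library, but replicate 3 was far below replicate 2. The log2 fold change of -0.54 (SE 0.25, 95% interval -1.13 to 0.06) had an adjusted p of 0.119 by edgeR's quasi-likelihood test, so no difference was established. Without Fgfr3CE-E12.5 replicate 2 the value was -1.04 with an adjusted p of 0.00254, a fit in which the lone remaining library was assumed to vary like the Dlx5CE-E12.5 libraries, and without replicate 3 it was -0.16. The CPM of replicate 3 over that of replicate 2 was 0.545 for Ccnd2 and 1.64 for Ccnd3, and the same ratio was 0.649 for the summed CAR cell markers, 2.14 for 20 pan-leukocyte markers and 2.47 for 12 neutrophil markers. The part of these cell type markers in the D cyclin values was not tested.

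Ccnd1, a D cyclin widely expressed outside the blood lineages (ENSMUSG00000070348, chromosome 7, 144929931 to 144939925), was scarce. It had 130, 106 and 142 counts in Dlx5CE-E12.5 cells and 483 and 639 in Fgfr3CE-E12.5 cells, which corresponded to 4.24, 4.99 and 5.65 CPM against 7.85 and 10.1. The Fgfr3CE-E12.5 libraries were both above all Dlx5CE-E12.5 libraries. In the fit with the lower filter, a CPM of 1 or more in 2 libraries, the log2 fold change was 0.83 (SE 0.28, 95% interval 0.17 to 1.499) with an adjusted p of 0.0487, under the fold threshold. Its adjusted p was under 0.05 in 5 of 13 alternatives and reached 0.219. In this gene 21.6% of 50-base windows also occur in transcripts of LTO1, an overlapping gene on the other strand at 21.5 to 29.8 CPM. The strand setting of the counting was not given in the sources used here, so part of the Ccnd1 count is uncertain.

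Within a library, the D cyclins were compared as shares of their summed counts per base of the longest principal transcript, which do not depend on scaling between libraries. Ccnd3 made up 80.9%, 80.2% and 82.4% in Dlx5CE-E12.5 cells and 82.0% and 92.7% in Fgfr3CE-E12.5 cells. Ccnd2 made up 18.5%, 19.1% and 16.9% against 16.9% and 6.32%, and Ccnd1 0.579%, 0.767% and 0.751% against 1.15% and 1.02%. The composition of Fgfr3CE-E12.5 replicate 2 was close to that of the Dlx5CE-E12.5 libraries, and replicate 3 stood apart. The size of the shares depended on the length used. Per kilobase of the longest principal transcript, mean CPM of Ccnd3 and Ccnd2 was 154.5 and 34.5 in Dlx5CE-E12.5 cells and 197.5 and 23.8 in Fgfr3CE-E12.5 cells. Per kilobase of all exon bases it was 37.2 and 23.2, and 47.6 and 16.0, so Ccnd3 stood less far above Ccnd2. Exact two-sided permutation tests over the 5 libraries gave p = 0.4 for Ccnd3 and p = 0.2 for both others, the smallest that 3 against 2 libraries allow. Since the shares add up to the whole in each library, these tests are not separate results.

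**Figure D2:**
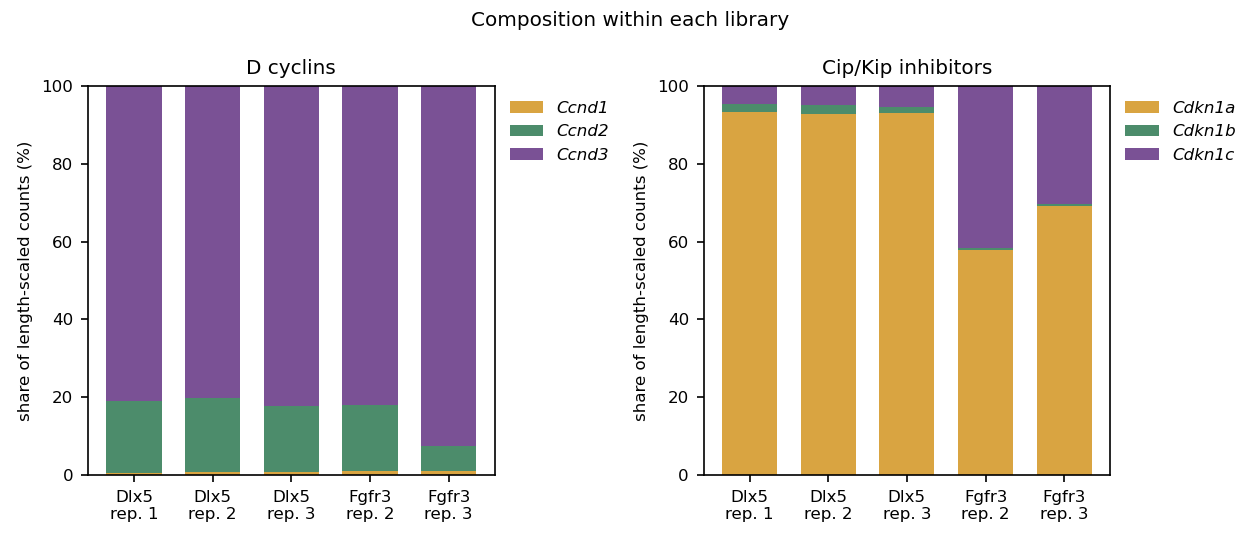
Stacked bars show, for each of the 5 libraries, the percent of length-scaled counts taken by each D cyclin (left) and each Cip/Kip inhibitor (right). Ccnd3 took 80.2% to 92.7% of the D cyclins in every library, and Cdkn1c took 30.2% to 41.7% of the Cip/Kip inhibitors in Fgfr3CE-E12.5 libraries and 4.55% to 5.35% in Dlx5CE-E12.5 libraries. Counts were scaled by the longest principal transcript, and the size of the shares depended on that length.

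Ccne1, a partner of CDK2 at the entry into S phase (ENSMUSG00000002068, chromosome 7, 38097984 to 38107534), was at 18.7, 18.8 and 20.4 CPM in Dlx5CE-E12.5 cells and at 35.5 and 42.1 in Fgfr3CE-E12.5 cells. Both Fgfr3CE-E12.5 libraries were above the Dlx5CE-E12.5 range, which was narrow. The log2 fold change was 1.01 (SE 0.16, 95% interval 0.62 to 1.39) with an adjusted p of 0.0024 by edgeR's quasi-likelihood test, just past the fold threshold. In 6 of 14 alternative analyses it was just under that threshold, at 0.88 to 0.99, and its adjusted p stayed under 0.05 in all 14. None of its 50-base windows occurred in another gene.

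Ccne2, the other E cyclin (ENSMUSG00000028212, chromosome 4, 11191351 to 11204779), was at 37.4, 20.8 and 21.4 CPM in Dlx5CE-E12.5 cells and at 69.3 and 67.2 in Fgfr3CE-E12.5 cells. Dlx5CE-E12.5 replicate 1 was above the other 2 Dlx5CE-E12.5 libraries but below both Fgfr3CE-E12.5 libraries. The log2 fold change was 1.36 (SE 0.27, 95% interval 0.73 to 2.00), with an adjusted p of 0.0058 by edgeR's quasi-likelihood test, and the value was 1.69 without Dlx5CE-E12.5 replicate 1. That replicate was the highest of the Dlx5CE-E12.5 libraries for 3990 of the 10088 genes tested. It was also the highest for 17 of 20 proliferation genes, 9 of 11 B lineage markers and 8 of 9 erythroid markers, whose summed CPM was 36364 against 17864 and 23500. The same held for 14 of 20 pan-leukocyte, 7 of 10 osteoblast, 5 of 12 neutrophil and 5 of 12 chondrocyte markers. It held for 4 of 9 endothelial, 2 of 9 macrophage and monocyte and 1 of 11 CAR cell markers. The part of these markers in the Ccne2 value was not tested. In Ccne2, 14.4% of 50-base windows are shared with Ints8 on the other strand, itself called higher in Fgfr3CE-E12.5 cells (log2 fold change 2.25, adjusted p = 0.00066, edgeR).

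Cdkn1a, the Cip/Kip inhibitor induced by p53 (ENSMUSG00000023067, chromosome 17, 29090976 to 29100727), was at 385.03, 381 and 504 CPM in Dlx5CE-E12.5 cells and at 273 and 308 in Fgfr3CE-E12.5 cells. The libraries did not overlap, with Dlx5CE-E12.5 replicate 3 above the rest. The log2 fold change was -0.54 (SE 0.18, 95% interval -0.97 to -0.12), with an adjusted p of 0.0425 by edgeR's quasi-likelihood test and under the fold threshold. Its adjusted p was under 0.05 in 5 of 14 alternatives and reached 0.147.

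Cdkn1b, the Cip/Kip inhibitor known for keeping cells quiescent (ENSMUSG00000003031, chromosome 6, 134920401 to 134925513), was at 20.2, 21.9 and 17.7 CPM in Dlx5CE-E12.5 cells and at 5.56 and 5.44 in Fgfr3CE-E12.5 cells. The 2 Fgfr3CE-E12.5 libraries were nearly equal and far below the lowest Dlx5CE-E12.5 library. The mean was 3.63 times as high in Dlx5CE-E12.5 cells, with a log2 fold change of -1.86 (SE 0.22, 95% interval -2.37 to -1.34) and an adjusted p of 0.00067 by edgeR's quasi-likelihood test. The call was kept in all 14 alternatives, between -1.94 and -1.65, and no window of the gene occurred elsewhere. As background, Cdkn1b is also controlled through its protein, which SKP2 marks for destruction.

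With Cdkn1c, the remaining member of the Cip/Kip family, the shares within a library could be set side by side. Cdkn1a made up 93.2%, 92.8% and 93.2% of length-scaled Cip/Kip counts in Dlx5CE-E12.5 cells and 57.7% and 69.2% in Fgfr3CE-E12.5 cells. Cdkn1b made up 2.23%, 2.44% and 1.497% against 0.537% and 0.559%, and Cdkn1c 4.55%, 4.76% and 5.35% against 41.7% and 30.2%. For each of the 3 genes the lineages did not overlap, and the exact two-sided permutation p was 0.2, the smallest possible. The shares add up to the whole in each library, so a higher share of Cdkn1c lowers the others and these are not 3 separate results. Cdkn1c, which is abundant in chondrocytes leaving the cycle, was at 17.2, 17.8 and 26.5 CPM in Dlx5CE-E12.5 cells and 180.4 and 123.02 in Fgfr3CE-E12.5 cells (log2 fold change 2.89, SE 0.25, adjusted p = 0.00022, edgeR). The summed CPM of 12 chondrocyte markers was 136 to 142 in Dlx5CE-E12.5 cells, where Col9a1 and Col10a1 were at 0, and 3415 and 488 in Fgfr3CE-E12.5 replicates 2 and 3. Sox9, at 117 to 124 CPM, made up most of the Dlx5CE-E12.5 sum and was lower in Fgfr3CE-E12.5 cells, at 96.8 and 53.7. The other 11 were higher in both Fgfr3CE-E12.5 libraries, where Col2a1, at 2598 and 343 CPM, made up most of the sum. Chondrocyte markers and Cdkn1c were thus both higher in Fgfr3CE-E12.5 replicate 2 than in replicate 3, but by different amounts. The CPM of replicate 3 over replicate 2 was 0.143 for the chondrocyte sum, 0.682 for Cdkn1c and 0.649 for the summed CAR cell markers. The part of either set of markers in the Cdkn1c value was not tested.

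Cdkn2c, an INK4 inhibitor of CDK4 and CDK6 and itself a target of E2F (ENSMUSG00000028551, chromosome 4, 109660876 to 109667189), had 236, 155 and 175 counts in Dlx5CE-E12.5 cells and 2759 and 3455 in Fgfr3CE-E12.5 cells. In CPM these were 7.70, 7.30 and 6.96 against 44.8 and 54.5. The Dlx5CE-E12.5 libraries lay close together, and both Fgfr3CE-E12.5 libraries were well above them. The log2 fold change was 2.76 (SE 0.18, 95% interval 2.35 to 3.18), with an adjusted p of 6.7e-05 by edgeR's quasi-likelihood test, and it ranged from 2.38 to 2.97 over 14 alternatives, with the call kept in each. None of its 50-base windows was shared with another gene.

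Cdkn2a, which encodes an INK4 inhibitor and the p53 activator ARF and is known for its role in senescence (ENSMUSG00000044303, chromosome 4, 89274471 to 89294653), was barely detected. It had 0, 2 and 1 counts in Dlx5CE-E12.5 cells and 24 and 5 in Fgfr3CE-E12.5 cells. In CPM, Fgfr3CE-E12.5 replicate 3 at 0.0789 lay within the Dlx5CE-E12.5 range of 0 to 0.0942, and replicate 2 was at 0.390. Summed over libraries, 29 counts of 114521488 against 3 of 81734961 gave a ratio of 6.90 with an exact 95% interval of 2.14 to 35.4, which covers counting error and not the spread between libraries. Cdkn2a was tested only in the alternative with no filter on low counts, where the log2 fold change was 2.40 (SE 1.63, 95% interval -1.38 to 6.17) with an adjusted p of 0.303 by edgeR's quasi-likelihood test.

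Rb1, the pocket protein that binds E2F factors and that cyclin D and cyclin E kinases inactivate (ENSMUSG00000022105, chromosome 14, 73183673 to 73325822), was at 12.6, 8.29 and 12.8 CPM in Dlx5CE-E12.5 cells and at 51.0 and 55.0 in Fgfr3CE-E12.5 cells. Both Fgfr3CE-E12.5 libraries were above the Dlx5CE-E12.5 libraries, of which replicate 2 was lowest. The log2 fold change was 2.24 (SE 0.22, 95% interval 1.71 to 2.76) with an adjusted p of 0.00035 by edgeR's quasi-likelihood test, and the call was kept in all 14 alternatives. Exons of Rcbtb2 and Lpar6 on the other strand share 11.96% of its 50-base windows. Rcbtb2 was at 81.6 to 132 CPM with a log2 fold change of -0.08 and Lpar6 at 29.9 to 63.1 CPM with a log2 fold change of -0.73, so neither rose with Rb1.

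**Figure D3:**
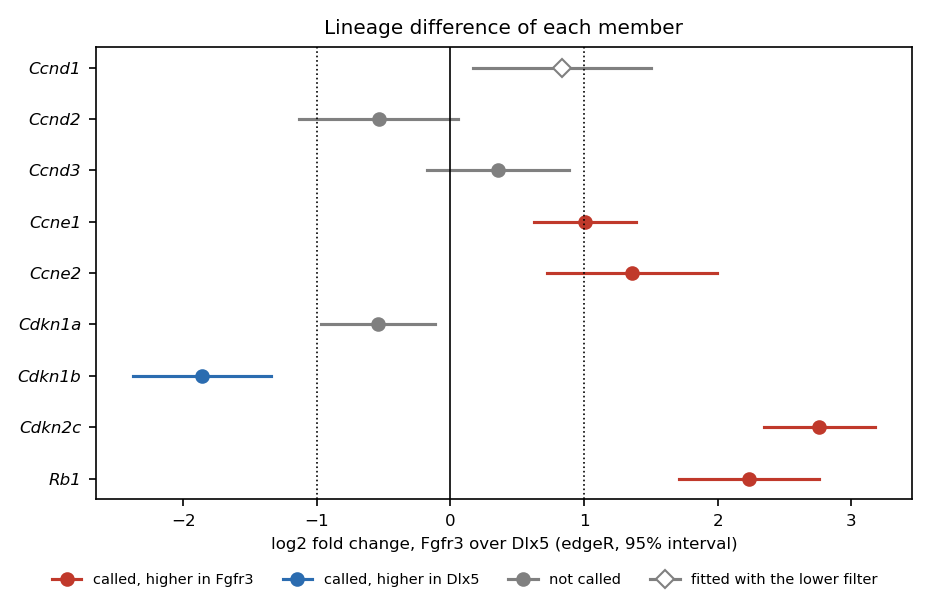
Points show the log2 fold change (Fgfr3 over Dlx5) of each gene fitted and bars its 95% interval from edgeR's quasi-likelihood fit. Dotted lines mark the fold threshold of 1 in either direction, colour marks genes past both thresholds, and the open symbol is Ccnd1, fitted with the lower filter. Cdkn2c at 2.76, Rb1 at 2.24, Ccne2 at 1.36 and Ccne1 at 1.01 were called higher in Fgfr3CE-E12.5 cells and Cdkn1b at -1.86 was called higher in Dlx5CE-E12.5 cells.

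Levels of different genes were compared as CPM per kilobase of the longest principal transcript. In Dlx5CE-E12.5 cells, Cdkn1a was highest at 203.6 ± 33.7 (SD, n = 3), followed by Ccnd3 at 154.5 ± 13.5 and Ccnd2 at 34.5 ± 1.65. Ccne1 at 9.66 ± 0.474 and Ccne2 at 8.83 ± 3.13 overlapped, and below them came Cdkn1b at 4.38 ± 0.464, Cdkn2c at 2.96 ± 0.150, Rb1 at 2.41 ± 0.545 and Ccnd1 at 1.33 ± 0.188. In Fgfr3CE-E12.5 cells Ccnd3 was at 197.5 ± 68.0 (SD, n = 2) and Cdkn1a at 139.7 ± 11.8. The order of these 2 genes depended on the length used, since per kilobase of all exon bases Cdkn1a was above Ccnd3 in both lineages, at 119.2 ± 19.7 against 37.2 ± 3.26 in Dlx5CE-E12.5 cells and 81.8 ± 6.94 against 47.6 ± 16.4 in Fgfr3CE-E12.5 cells. Ccnd2 at 23.8 ± 9.89 overlapped Ccne2 at 22.7 ± 0.496, and Cdkn2c at 20.1 ± 2.77 overlapped Ccne1 at 19.4 ± 2.31, while per kilobase of all exon bases the mean of Ccnd2 was below those of Ccne2 and Cdkn2c. Rb1 followed at 11.4 ± 0.605, then Ccnd1 at 2.40 ± 0.422, and Cdkn1b was down at 1.21 ± 0.0179. Cdkn2a was the lowest in both lineages, at 0.0499 ± 0.0528 and 0.262 ± 0.246. Cdkn1b thus stood above Cdkn2c, Rb1 and Ccnd1 in every Dlx5CE-E12.5 library and below all of these in every Fgfr3CE-E12.5 library.

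Other genes of the pathway were counted in 8 lists, of which 87 of 92 measured genes were tested. Of these 87, 37 were called higher in Fgfr3CE-E12.5 cells and 4 higher in Dlx5CE-E12.5 cells, with a median log2 fold change of 0.73, where that of all genes tested was 0.01 and 16.4% and 13.1% of all genes were called. Of the 87, 13 reached a CPM of 10 in fewer than 2 Dlx5CE-E12.5 libraries, so that they passed the filter only with the Fgfr3CE-E12.5 libraries and a count over them leans towards that lineage. Of the 74 that reached it in 2 or more libraries of each lineage, 25 were called higher in Fgfr3CE-E12.5 cells and 4 higher in Dlx5CE-E12.5 cells, with a median of 0.35. Of all 8341 genes that did so, 11.3% and 10.4% were called, with a median of -0.01. Among 8 kinases and activators of G1, only Cdc25a, the phosphatase that activates CDK2, passed both thresholds, with 12.9, 12.8 and 14.8 CPM in Dlx5CE-E12.5 cells and 40.2 and 53.9 in Fgfr3CE-E12.5 cells (log2 fold change 1.80, adjusted p = 0.00045, edgeR). Cdk4, the partner of the D cyclins, was at 191 to 216 CPM in Dlx5CE-E12.5 cells and 197 and 222 in Fgfr3CE-E12.5 cells, overlapping and with a log2 fold change of 0.07 ± 0.14 (SE). Cdk6, the other partner, had a log2 fold change of -0.63 and passed the adjusted p alone. The list had a median of 0.07, close to that of all genes.

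Of 10 E2F and DP factors, which bind DNA as heterodimers, 7 were called higher in Fgfr3CE-E12.5 cells and none in Dlx5CE-E12.5 cells, with a median log2 fold change of 1.79. However, E2f1, E2f5, E2f6, E2f7 and E2f8 passed the filter only with the Fgfr3CE-E12.5 libraries, and of the other 5, E2f4 and Tfdp1 were called, with a median of 0.99. E2f1, an activator of S phase genes, was at 2.45 to 3.46 CPM in Dlx5CE-E12.5 cells and 22.3 and 38.6 in Fgfr3CE-E12.5 cells (log2 fold change 3.30, adjusted p = 0.00028, edgeR). E2f4, which acts with pocket proteins as a repressor in quiescent cells, was at 13.2 to 19.5 CPM against 114 and 153 (log2 fold change 3.01, adjusted p = 9.4e-05, edgeR). Tfdp1, the main DP partner, had a log2 fold change of 2.57, E2f6 of 2.88, E2f7 of 1.88, E2f8 of 1.71 and E2f5 of 1.24. Activating and repressive E2F genes were therefore both among those higher in Fgfr3CE-E12.5 cells, while E2f3 at -0.24 and Tfdp2 at 0.24 did not pass the test. The libraries of the lineages were separate for all 10, as they were for 68.9% of all genes tested.

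Of 8 subunits and partners of DREAM and MuvB, the complexes that repress cell cycle genes in quiescence and activate them later, 4 were called higher in Fgfr3CE-E12.5 cells. Mybl2 and Foxm1, which join MuvB in cycling cells, had log2 fold changes of 3.30 and 2.87, and the core subunits Lin9 and Lin54 of 1.33 and 1.13. Mybl2, Foxm1 and Lin9 passed the filter only with the Fgfr3CE-E12.5 libraries, and of the other 5 genes Lin54 alone was called, with a median of 0.14. Lin37, Lin52, Rbbp4 and Dyrk1a lay between -0.26 and 0.19 and were not called. Of 20 proliferation genes of S phase and mitosis, all of which reached the filter in both lineages, 15 were called higher in Fgfr3CE-E12.5 cells, with a median of 1.40. Ccna2, the cyclin of S phase, had a log2 fold change of 2.05 and Plk1, a mitotic kinase, of 2.15. Mki67, a common marker of cycling cells, was at 102.5, 54.5 and 63.1 CPM in Dlx5CE-E12.5 cells and 96.2 and 89.5 in Fgfr3CE-E12.5 cells, overlapping, with an adjusted p of 0.329 (edgeR).

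Of 4 other inhibitors and pocket proteins tested, Cdkn1c alone was called. Cdkn2d, an INK4 inhibitor, had a log2 fold change of 0.93 and Rbl2, a pocket protein, of -0.61, and both passed the adjusted p alone. Rbl1, the remaining pocket protein, was at 0.48 with an adjusted p of 0.0631 (edgeR). Cdkn2b, the INK4 gene next to Cdkn2a, did not reach the filter. In the list of protein turnover, 4 of 13 genes were called higher in Fgfr3CE-E12.5 cells and 1 in Dlx5CE-E12.5 cells, with a median of 0.63. Skp2, Fbxo31, Cdc34 and Trim21 passed the filter only with the Fgfr3CE-E12.5 libraries, and of the other 9 genes 1 was called in each direction, with a median of 0.07. Skp2, the ubiquitin ligase subunit that recognizes the Cdkn1b protein, was at 7.87 to 8.71 CPM in Dlx5CE-E12.5 cells and 19.1 and 21.9 in Fgfr3CE-E12.5 cells (log2 fold change 1.32, adjusted p = 0.00196, edgeR). Gsk3b, a kinase that marks cyclin D1 for export and destruction, was the gene higher in Dlx5CE-E12.5 cells, with a log2 fold change of -1.28. Fbxo31 at 2.74, Cdc34 at 2.22 and Cul3 at 1.84 were the others called.

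Of 14 genes of p53 and its targets tested, 2 (14.3%) were called in each direction, close to the shares of all genes, with a median of 0.14. Gadd45a at 2.57 and Bbc3 at 1.84 were higher in Fgfr3CE-E12.5 cells (Bbc3 passed the filter only with these libraries), and Btg2 at -1.81 and Sesn2 at -1.16 were higher in Dlx5CE-E12.5 cells. Trp53 itself had a log2 fold change of -0.31 with an adjusted p of 0.103 (edgeR). Of 10 genes of mitogen and growth inputs to the D cyclins, 3 were called higher in Fgfr3CE-E12.5 cells and 1 in Dlx5CE-E12.5 cells, with a median of -0.30. Foxo1 and Foxo3, transcription factors that induce Cdkn1b and are held in check by growth factor signals, differed in opposite directions, at 1.52 and -2.41. Foxo3 was at 60.8, 94.7 and 122 CPM in Dlx5CE-E12.5 cells and 16.5 and 18.4 in Fgfr3CE-E12.5 cells, with no overlap. Mxi1, an antagonist of MYC, was at 1.65 and Btg1, an antiproliferative gene, at 1.57. Myc was abundant at 703 to 984 CPM in Dlx5CE-E12.5 cells and 631 and 447.5 in Fgfr3CE-E12.5 cells, with an adjusted p of 0.0718 (edgeR).

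**Figure D4:**
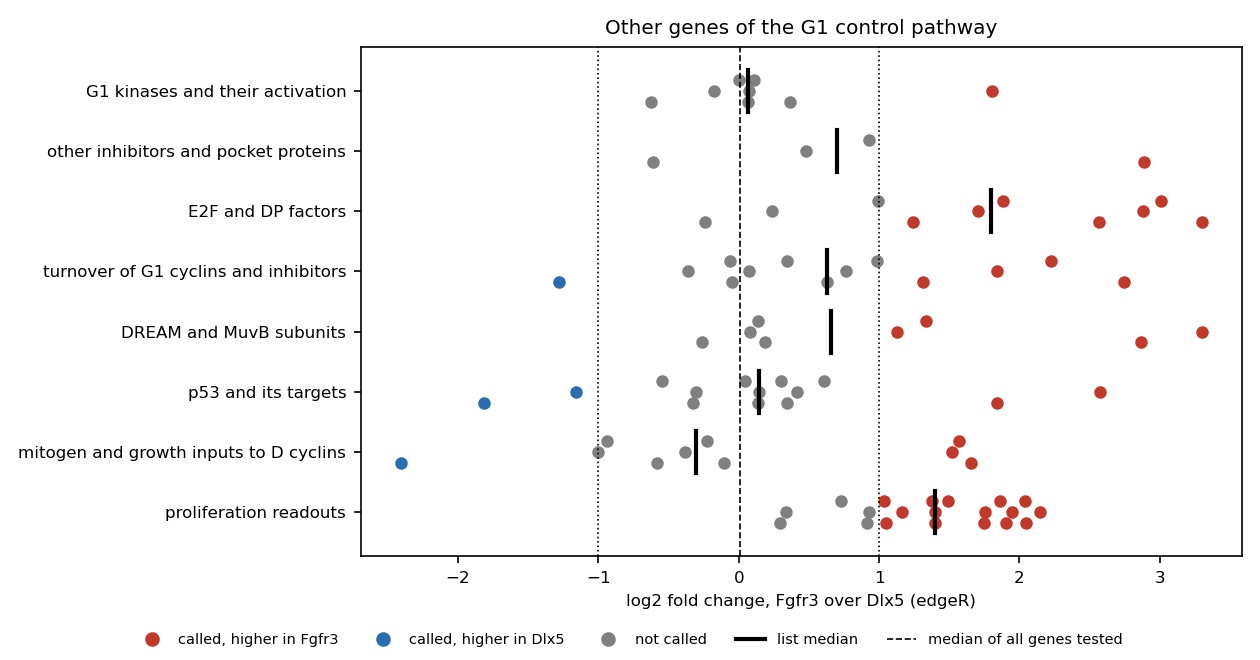
Each point is the log2 fold change (Fgfr3 over Dlx5, edgeR) of 1 tested gene in 1 of 8 pathway lists, coloured where it passed both thresholds. The black tick is the list median, the dashed line the median of all 10088 genes tested at 0.01, and the dotted lines the fold threshold of 1. The medians of the E2F and DP factors at 1.79 and of the proliferation genes at 1.40 lay farthest to the right, the former with 5 of 10 genes that passed the filter only with the Fgfr3CE-E12.5 libraries.

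For the 5 genes called, the genes of most similar pattern were those with the smallest root mean square difference in log2 CPM, centred on the mean over the 5 libraries. For Cdkn2c the nearest was Tfdp1, at a difference of 0.0631, followed by Fbxl14 and Phf10. For Rb1 they were Racgap1 at 0.0489, Pip4p1 and Hmmr, and for Ccne2 Bora at 0.0932, Azin2 and Kif11. For Ccne1 they were Rasl11a at 0.0386, Ppp4c and Brpf1, and for Cdkn1b Zcchc7 at 0.0333, Ksr1 and Dele1. With 5 libraries in 2 groups, this likeness describes mostly the size of the lineage difference.

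Markers of some blood cells differed between the lineages too. Of 20 pan-leukocyte markers, 19 were higher in both Fgfr3CE-E12.5 libraries than in all Dlx5CE-E12.5 libraries, and their summed CPM was 620 to 811 in Dlx5CE-E12.5 cells, 1954 in Fgfr3CE-E12.5 replicate 2 and 4181 in replicate 3. The sums of 12 neutrophil markers were 2545 to 3178 against 7092 and 17492, and those of 9 macrophage and monocyte markers 95.8 to 127 against 228 and 369. B lineage markers overlapped, at 960 to 1221 against 988 and 1202, as did 9 erythroid markers, at 17864 to 36364 against 13984 and 20753, with Hbb-bt and Hba-a1 called higher in Dlx5CE-E12.5 cells. The sums of 9 endothelial markers, 27.2 to 46.0 against 40.0 and 57.9, overlapped as well. Of these 9, 3 were higher in both Fgfr3CE-E12.5 libraries than in all Dlx5CE-E12.5 libraries and 2 were lower. The sum of 10 osteoblast markers, carried largely by Col1a1, Alpl and Ibsp, was 3785 to 5337 against 7247 and 9719, while 5 of the 10 were higher in both Fgfr3CE-E12.5 libraries and Phex was called higher in Dlx5CE-E12.5 cells (log2 fold change -2.23). None of the leukocyte, neutrophil or macrophage markers was at 0 in all Dlx5CE-E12.5 libraries. Among the genes called here, the CPM of Fgfr3CE-E12.5 replicate 3 over replicate 2 was 1.18 for Ccne1, 0.970 for Ccne2, 0.979 for Cdkn1b, 1.22 for Cdkn2c and 1.08 for Rb1. For the marker sums it was 2.47 for neutrophil, 2.14 for pan-leukocyte, 1.62 for macrophage and monocyte and 1.48 for erythroid markers. It was 1.45 for endothelial, 1.34 for osteoblast, 1.22 for B lineage, 0.649 for CAR cell and 0.143 for chondrocyte markers. Of the 20 proliferation genes, 17 were higher in replicate 3, as were 20 of 20 pan-leukocyte markers and 4892 of the 10088 genes tested. Without replicate 3, the log2 fold changes were 2.61 for Cdkn2c, 2.18 for Rb1, 1.38 for Ccne2, 0.88 for Ccne1 and -1.85 for Cdkn1b, a comparison in which the remaining library still had the higher pan-leukocyte sum. The part of these cells in the lineage differences was not tested.

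**Figure D5:**
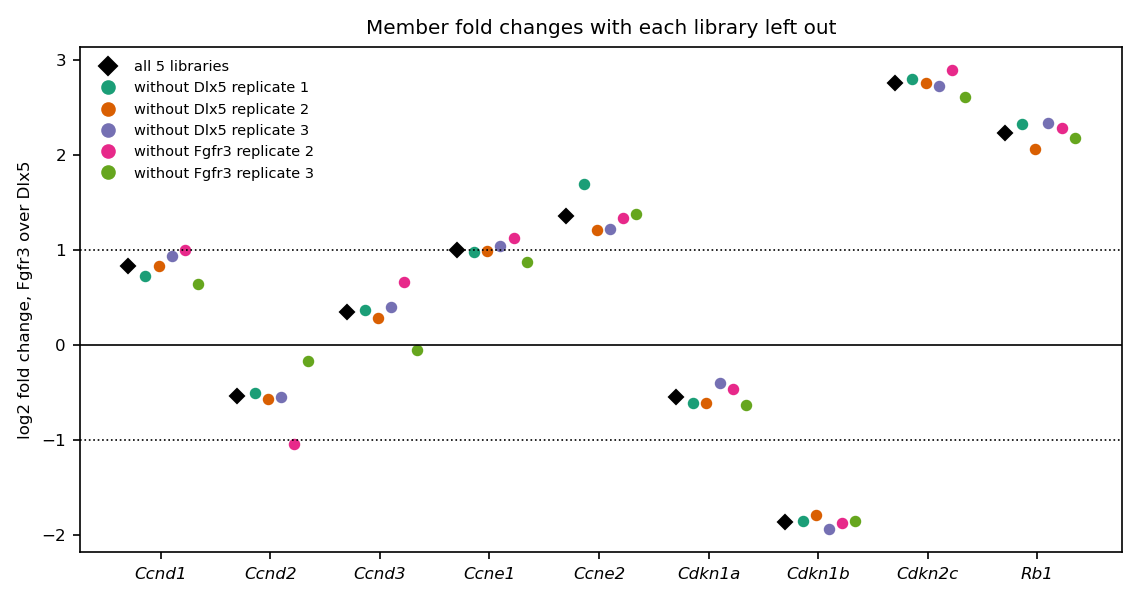
Log2 fold changes (Fgfr3 over Dlx5, edgeR) of the 9 genes fitted are plotted for all 5 libraries (black diamonds) and with each library left out in turn (coloured circles), with dotted lines at the fold threshold of 1. Ccnd3 ranged from -0.05 to 0.67 and Ccnd2 from -1.04 to -0.16, depending on the Fgfr3CE-E12.5 library left out, while Cdkn2c, Rb1, Ccne2 and Cdkn1b stayed past the threshold.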

How the data were processed

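RNA-seq was made from sorted cells in bulk, with 3 libraries of Dlx5CE-E12.5 cells and 2 of Fgfr3CE-E12.5 cells, amplified with a SMART-Seq kit and grouped by the sample labels. Reads were aligned by the authors to mm10 using TopHat2 2.0.13 and Bowtie2 2.2.1 and the authors deposited reads per gene as unnormalized counts, HTSeq being among the tools of the submitters' processing notes. The strand setting is not given in the sources used here. A depth-normalized table and a table of rlog values were also deposited and not used here. Reads carried no molecular identifiers, so intervals on counts cover counting error only.

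Gene types, coordinates and lengths were taken from GENCODE M21 (GRCm38), in which 29965 of 30041 Ensembl identifiers were found. Protein-coding genes and reporters that reached a CPM of 10 in 2 or more of the 5 libraries entered a fit of the counts (R 4.3.3, edgeR 4.0.16, TMM normalization, quasi-likelihood test, Benjamini-Hochberg adjustment over 10088 genes, no covariates). The methods of the study used edgeR's exact test, kept here as an alternative. Ccnd1 was fitted among 13225 genes that reached a CPM of 1 in 2 libraries. In counts simulated for this comparison, 197 of 200 changed genes and 1 unchanged gene were called. The simulation gave all genes and libraries the same spread, and its changed genes all lay above the CPM filter and changed by more than the fold threshold. It checks the fitting steps and gives no error rate for the real libraries. Pairs of libraries all differed by more than sampling noise. Replicate numbers shared by the lineages mark different pools of mice.

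The genes and lists were chosen with earlier results of these data known. The text names every member, genes of the pathway lists, the 3 nearest patterns of each gene called, genes that overlap a member, and markers set beside a result. The alternatives were other size factors, library size alone, the exact test of edgeR, the Wald test of DESeq2 1.42.0, other filters, all features, a replicate block, a GC trend removed with a loess fit, each library left out, no fold threshold and raw counts for shares. Shares and levels over all exon bases, and member calls and pathway counts over genes that reached the filter in both lineages, were added after seeing the data.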

Additional observations from a re-analysis of the deposited data

How the results depend on the processing

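Ccne2, Cdkn1b, Cdkn2c and Rb1 kept their calls in all 14 alternatives. Ccne1 was under the fold threshold in 6, at 0.99 with a CPM filter of 1, 0.98 with the replicate block, 0.92 with the GC trend removed and 0.88 to 0.99 without Dlx5CE-E12.5 replicate 1 or 2 or Fgfr3CE-E12.5 replicate 3. Genes called higher in Fgfr3CE-E12.5 cells therefore numbered 3 or 4. With the replicate block 3 were called higher in Fgfr3CE-E12.5 cells and 1 in Dlx5CE-E12.5 cells, and it changed no call other than Ccne1. The numbers were not taken to pair the samples, since they mark different pools of mice. The correlations of deviations from the group means were 0.130 for number 2 and -0.0527 for number 3. With 2 Fgfr3CE-E12.5 libraries the deviations of both mirror each other, so these correlations cannot decide whether the numbers pair the samples. Ccnd3 turned to -0.048 without Fgfr3CE-E12.5 replicate 3 (range -0.048 to 0.67 over libraries left out), and its adjusted p ranged from 0.0154 to 0.996. Genes called higher in Dlx5CE-E12.5 cells ranged from 1 to 2 over libraries left out, with Ccnd2 added at -1.04 without Fgfr3CE-E12.5 replicate 2, and were 2 with no fold threshold, which adds Cdkn1a. Ccnd1 was past the fold threshold at 1.06 with library size alone, a scaling that moved the median of all genes from 0.01 to 0.22 and the share of calls higher in Fgfr3CE-E12.5 cells from 55.6% to 66.3%. Shares moved with the length used. Fgfr3 minus Dlx5, the share of Ccnd2 was -6.56 percentage points, -12.6 with raw counts and -12.3 with all exon bases, that of Ccnd3 6.18, 11.97 and 11.1, that of Ccnd1 0.39 percentage points, 0.65 with raw counts and 1.19 with all exon bases, that of Cdkn1b -1.51, -3.18 and -2.60, and that of Cdkn1c 31.1 and 39.4 with all exon bases. The causes were not tested. Per kilobase, Cdkn1a minus Ccnd3 in Fgfr3CE-E12.5 cells was -57.8 CPM, and 34.2 with all exon bases, which gives Ccnd3 a length of 8775 in place of 2113 bases. With 3 against 2 libraries, an exact test cannot go below 0.2. Cdkn2a, with at most 24 counts in a library, entered neither filtered fit.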
